A study of Caenorhabditis elegans with 4 samples.

Results

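The arms of chromosome V of the worm Caenorhabditis elegans held 513 of the 7714 genomic regions at which the tagged transcription factor SKN-1 was enriched in fed first-stage (L1) larvae. Membership was decided by position alone. A region belonged to the left arm when its midpoint lay below 5900000, and to the right arm when its midpoint lay above 16550000, on the WS180 build of the genome. The left arm held 309 regions and the right arm 204. Together they made up 41.9% of the 1223 regions of chromosome V and 6.65% of the whole list.

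SKN-1 is the worm relative of the mammalian Nrf factors. It is known for switching on detoxification and oxidative stress genes, in larvae above all in the intestine, and for specifying gut and muscle precursors in the early embryo. The arms of the worm's autosomes recombine more often than the centres, carry more repeats and more heterochromatin marked by methylation of histone H3 lysine 9, and tend to lie at the nuclear envelope. The arms of V are also known for large, recently expanded gene families, chief among them the chemoreceptors of sensory neurons.

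All libraries came from hermaphrodites of strain OP178, grown at 20 °C on bacteria to the fed L1 stage. The genotype is unc119(ed3) with the transgene wgIs178, which supplies skn-1 carrying TY1, EGFP and FLAG tags and a copy of unc119, brought in by bombardment. The label lists no change at the worm's own skn-1 gene, and every library carries the transgene, so the design holds no untagged control. There were 2 ChIP libraries, precipitated with a goat antibody against GFP, and 2 libraries of input chromatin. Replicates 1 and 2 each have their own extraction number. The ChIP protocol text speaks of embryos although the stage label is fed L1.

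The authors' deposited list pools these libraries, gives 1 q value per region, and was made with the peak caller PeakSeq. No spread between replicates can be given, so the only error that follows is counting error, shown as 95% exact intervals. From the q values, PeakSeq tested 14281 regions and listed 54.0% of them, at q under 0.01. ChIP tags and input tags per region are not in the list and were solved from the q values. Genes and sequences at the regions were not analysed here, since no annotation or genome on WS180 was at hand.

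Both arms held fewer regions per Mb than the centre of the same chromosome. The left arm had 52.4 regions per Mb (46.8 to 58.6) over the 5.89 Mb from the first region of V to the arm boundary. The right arm had 47.2 (40.9 to 54.1) over the 4.33 Mb from its boundary to the last region. The centre of V held 710 regions, or 66.7 per Mb (61.9 to 71.8), and the other 5 chromosomes together 82.2 per Mb (80.2 to 84.2). The left arm's rate was 0.787 times that of the centre (0.686 to 0.900) and the right arm's 0.708 times (0.602 to 0.828), so neither interval reached 1. In the best-ranked 1928 regions of the list the left arm's rate was 0.892 times that of the centre (0.670 to 1.18), an interval that does reach 1. The 2 arms did not differ beyond counting error, with a rate in the right arm 0.899 times that of the left (0.750 to 1.08). Against the other chromosomes, taken whole and not arm by arm, the rates were 0.638 (0.568 to 0.716) on the left and 0.574 (0.497 to 0.660) on the right. The centre of V was also below them, at 0.811 (0.750 to 0.877). Regions lie in groups, which makes all these intervals too narrow.

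Input depth at the listed regions was also lower in the arms. Among regions of at least 250 bp, the median was 43.6 input tags per kb in the left arm (211 regions), 41.7 in the right (103) and 51.3 in the centre (490). Fewer tags make a region harder to list at the same enrichment. The part of input depth, of repeats and of read alignability in the lower counts was not tested.

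**Figure D1:**
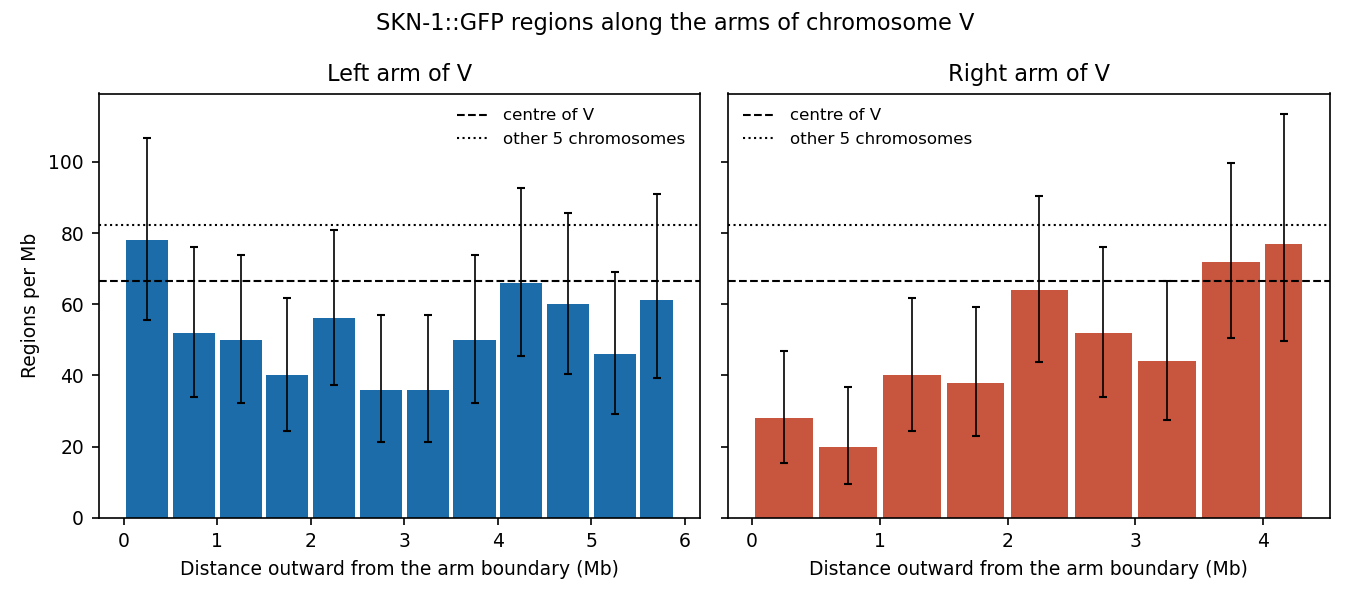
Regions per Mb in steps of 500 kb, plotted by distance outward from each arm's boundary with the centre; the outermost step ends at the first or last region of V. Bars give the rate and lines its 95% exact Poisson interval. Dashed and dotted lines mark the centre of V (66.7 per Mb) and the other chromosomes (82.2 per Mb). The right arm was lowest near the centre of the chromosome, at 20.0 per Mb in its second step, and reached 76.9 at its tip.

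The arms differed in how their regions were laid out. The left arm was even when split at its midpoint, with 155 regions in the inner part next to the centre and 154 in the outer part. The right arm rose towards its tip, with 75 regions inside and 129 outside over equal lengths of 2.16 Mb. The outer part thus held 1.72 times as many (1.28 to 2.32). The split was added after values were seen and the interval ignores grouping, so it is no test of the difference. The inner part also holds the arm's stretches of 336 kb, 197 kb and 122 kb without a region, described below. In the inner part of the right arm, the rate was 34.7 regions per Mb (27.3 to 43.5). Its outer part had 59.7 per Mb (49.8 to 70.9), an interval that takes in the 66.7 of the centre. Among regions of at least 250 bp, median input was 37.4 tags per kb in the inner part of the right arm (35 regions) and 45.0 in its outer part (68). The left arm's parts had 45.9 inside (107) and 42.8 outside (104) at nearly equal counts. Among the right arm's steps, the thinnest (20.0 regions per Mb) had the lowest median input, 28.6 tags per kb. That median is of little weight, since the step's regions of at least 250 bp were only those with 21.3, 28.6 and 31.7 tags per kb. The arm's densest step (76.9 per Mb) had the highest median, 52.4. Some steps went the other way: those from 18550001 to 19050000 and from 17550001 to 18050000 had 64 and 40 regions per Mb at 32.1 and 44.7 input tags per kb. The part of input depth in these rates was not tested.

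Steps of 500 kb show where the arms were thin. In the left arm the step next to the centre, from 5400001 to 5900000, held 39 regions, or 78.0 per Mb, with an interval (55.5 to 107) that takes in the mean of the centre. The thinnest steps of that arm, from 2400001 to 2900000 and from 2900001 to 3400000, held 18 each. The right arm began with 14 regions from 16550001 to 17050000 and 10 from 17050001 to 17550000. Its last steps, from 20050001 to 20550000 and from 20550001 to 20875072, held 36 and 25. The rates there were 72.0 and 76.9 per Mb.

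Dense windows of 100 kb occurred in both arms as well. At the tip of the right arm, 16 regions lay from 20700001 to 20800000, as many as in the richest window of the centre. Their median ChIP to input ratio was 2.22, and 3 of the 16 had a q under 1e-10, near the share of 18.6% in the whole list. The next windows of that arm were 20400001 to 20500000 with 12 regions and 17900001 to 18000000 with 10, a count that 2 others, from 19100001 and from 20200001, share. The median ratios of these last 3 were 4.07, 3.03 and 3.33, and that of the window from 20400001 was 2.06. In the left arm the windows from 2200001 to 2300000 and from 5500001 to 5600000 held 12 regions each, and that from 100001 to 200000 held 11. Their median ratios were 3.02, 2.53 and 2.67. At the other extreme, 5 of the 42 whole windows of the right arm were empty, against 3 of 58 in the left arm and 1 of 106 in the centre.

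Regions of the right arm were narrower and rested on fewer tags than those of the left. The median right arm region was 252 bp wide (quartiles 118 and 409), against 353 bp (193 and 497) in the left arm and 354 bp (200 and 541) in the centre. Regions under 100 bp made up 22.1% of the right arm, 15.9% of the left and 13.2% of the centre. A single base was listed at 3 regions of the right arm and 2 of the left. Wide regions of at least 1 kb were 9 on the right and 12 on the left, or 4.41% and 3.88%, against 6.62% of the centre. The regions covered 69.4 kb of the right arm and 127 kb of the left, which is 1.60% and 2.16% of their spans, against 3.11% of the centre. The median right arm region held 48 ChIP tags over 16 scaled input tags. In the left arm these medians were 81 and 34, and in the centre 88 and 40.

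Over all listed regions, the median ratio of ChIP to scaled input tags was higher in the arms than in the centre of V. The right arm had the highest median, and also the highest share of regions with little input. The median ratio was 3.00 on the right (quartiles 2.33 and 3.80), 2.60 on the left (2.09 and 3.30) and 2.37 in the centre (1.94 and 3.00). On the other chromosomes it was 2.49 (2.04 and 3.22), closer to the left arm than the centre was. Ratios above 4 were found at 46 regions of each arm, which is 22.5% on the right and 14.9% on the left. The shares were 8.87% in the centre and 11.3% on the other chromosomes. A region with little input enters the list only at a high ratio. Regions with under 10 input tags before scaling made up 49.5% of the right arm, 27.8% of the left and 22.3% of the centre. With at least 20 input tags, the median ratios were 2.19 on the right (69 regions), 2.24 on the left (161) and 2.04 in the centre (423). On the other chromosomes this median was 2.18 (3898 regions), near those of both arms. By class of input tags, the right arm had the higher median with 10 to 19 tags (2.59 against 2.47 on the left) and with 20 to 39 (2.33 against 2.23). With at least 40 input tags the left arm had a median of 2.28 (65 regions), against 2.00 on the right (28) and 1.96 in the centre (217). The scaled inputs of all of V were solved with 1 scaling factor, 1.58.

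**Figure D2:**
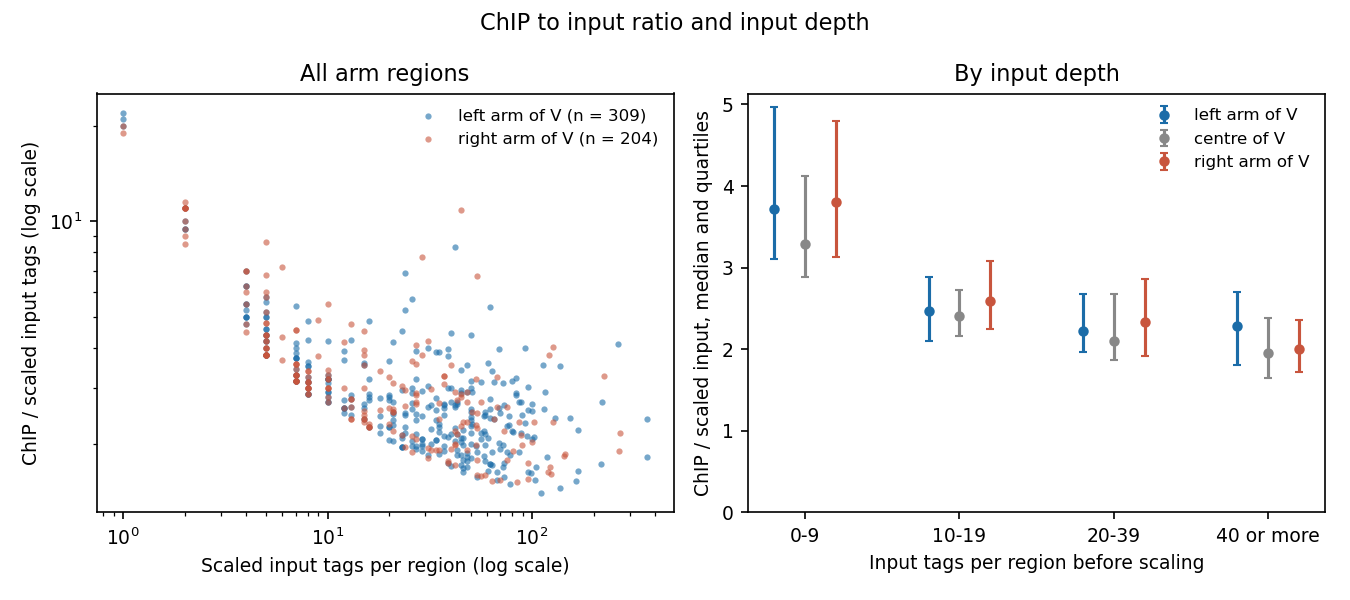
Left, the ratio of ChIP to scaled input tags against scaled input tags for every region of the arms, both on log scales. Right, medians with quartiles in 4 classes of input tags before scaling, for the left arm, the centre and the right arm. The lower edge of the cloud falls as input rises, from ratios of 19 and more at 1 scaled input tag, and the medians with 20 to 39 tags are 2.23, 2.10 and 2.33.

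The highest ratios in the arms by number alone had almost no input behind them. At 5 regions, 9 to 22 bp wide, 19 to 22 ChIP tags stood over a scaled input of 1. That value gave 0 whole input tags before scaling at each of them, so these ratios rest on no counted input tag. Such a region on the left, at 2938678 to 2938690, had 22 ChIP tags and no whole input tag before scaling. The lower bound of its ratio was 3.46, and no upper bound exists.

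A q under 1e-10 was reached by 55 of 309 left arm regions (17.8%) and 22 of 204 right arm regions (10.8%), against 16.1% in the centre and 18.6% of the whole list. These shares were not tested against each other. Per Mb, the left arm had 9.33 such regions (7.03 to 12.2), the right arm 5.09 (3.19 to 7.70) and the centre 10.7 (8.83 to 12.9). The interval of the right arm overlaps that of the left arm and lies below that of the centre, and those of the left arm and the centre overlap. Among the 1000 regions of the list with the smallest q, 41 were on the left arm (13.3% of its regions) and 12 on the right (5.88%), where the whole list gives 12.96%. Among the first 100, 2 were on the left and 4 on the right, numbers too small to give an order.

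The left arm's leading region by q lay at 1803997 to 1806286 and ranked 17 in the whole list (q = 1.04e-115). It held 1083 ChIP tags over 263 scaled input tags, a ratio of 4.12 (3.49 to 4.88). The stretches free of other regions were 14.2 kb before it and 14743 bp after it. The highest ratio of the arm among regions with at least 20 input tags was at 2057299 to 2057773, with 349 ChIP tags over 42 scaled input tags in 475 bp, or 8.31 (5.69 to 13.2). It is the first region after a stretch of 108 kb without any. A wide region close by, at 2067735 to 2070173, had 592 tags over 219 and a ratio of 2.70 (2.25 to 3.28). The intervals of these neighbours do not overlap. The region at 2259693 to 2260235 followed with 333 tags over 62 and a ratio of 5.37 (3.86 to 7.72). These 3 regions of the top 10 lie between the same 2 long stretches without a region.

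The widest region of either arm, at 4822986 to 4827555, had only a modest ratio although its q was among the 3 smallest of the left arm. It spanned 4570 bp with 873 ChIP tags over 365 scaled input tags, a ratio of 2.39 (2.07 to 2.78). Its interval takes in 2.60, the median of all left arm regions. The region at 1471085 to 1472575 held 480 tags over 137 (ratio 3.50, 2.80 to 4.49) and that at 5017686 to 5019211 held 401 over 113 (ratio 3.55, 2.76 to 4.66). The region at 5049215 to 5049961 held 369 tags over 92 (ratio 4.01, 3.04 to 5.39) and that at 4131409 to 4131964 held 275 over 69 (ratio 3.99, 2.92 to 5.71). Their order was not resolved, since all 4 intervals overlap. The tenth, at 3759523 to 3759907, had 165 ChIP tags over 24 and a ratio of 6.88 (4.09 to 12.7). Among regions with at least 20 input tags, the 5 highest ratios also took in 5776892 to 5777283 (4.45, 2.95 to 7.13) and 2600274 to 2600972 (4.40, 3.07 to 6.75), which rank 486 and 340 in the list by q.

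The right arm's leading region by q also had its highest ratio among regions with at least 20 input tags. At 18614356 to 18615032, 488 ChIP tags stood over 45 scaled input tags in 677 bp, a ratio of 10.8 (7.52 to 16.7), and it ranked 27 in the whole list (q = 1.25e-92). Next by q was a wide region at 19519660 to 19523094, with 736 tags over 225 and a ratio of 3.27 (2.73 to 3.94). After it, the region at 17921316 to 17921827 had 364 tags over 54 in 512 bp and a ratio of 6.74 (4.75 to 9.91). Its neighbour in the top 10, at 17950690 to 17951943, had 460 over 121 and a ratio of 3.80 (2.99 to 4.94), and the same 100 kb window holds both. The region at 20157706 to 20160266 had 508 over 126 and a ratio of 4.03 (3.20 to 5.21), after 71.3 kb without a region. The region at 19672166 to 19672750 reached 7.72 (4.86 to 13.5) on 224 tags over 29.

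The last 4 of the right top 10 had larger q values than the regions of the same order on the left. The region at 20772976 to 20774748 had 585 tags over 270, a ratio of 2.17 (1.83 to 2.59). The region at 20707091 to 20709190 had 505 over 267, a ratio of 1.89 (1.59 to 2.27). Both lie in the dense window at the tip, and both ratios lie below the right arm's median of 3.00. Their input was also deep, at 86.2 and 73.0 input tags per kb, against the arm's median of 41.7. Ranks in the whole list fell to 799 for the tenth region, at 19528866 to 19529620 (2.34, 1.83 to 3.04), while the tenth of the left arm ranked 333. The region at 16965590 to 16965979 (3.24, 2.34 to 4.65) ranked 623 and was the only one of the 10 in the innermost 1 Mb of the arm. Of the 5 highest ratios with at least 20 input tags, 4 were also in the top 10 by q, and the other, at 20474533 to 20474932, had a ratio of 3.52 (2.32 to 5.69). The 10 regions held 25.5% of all ChIP tags in right arm regions, and the left 10 held 14.6% of those in left arm regions. By number, 10 regions are 4.90% of the right arm and 3.24% of the left.

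**Figure D3:**
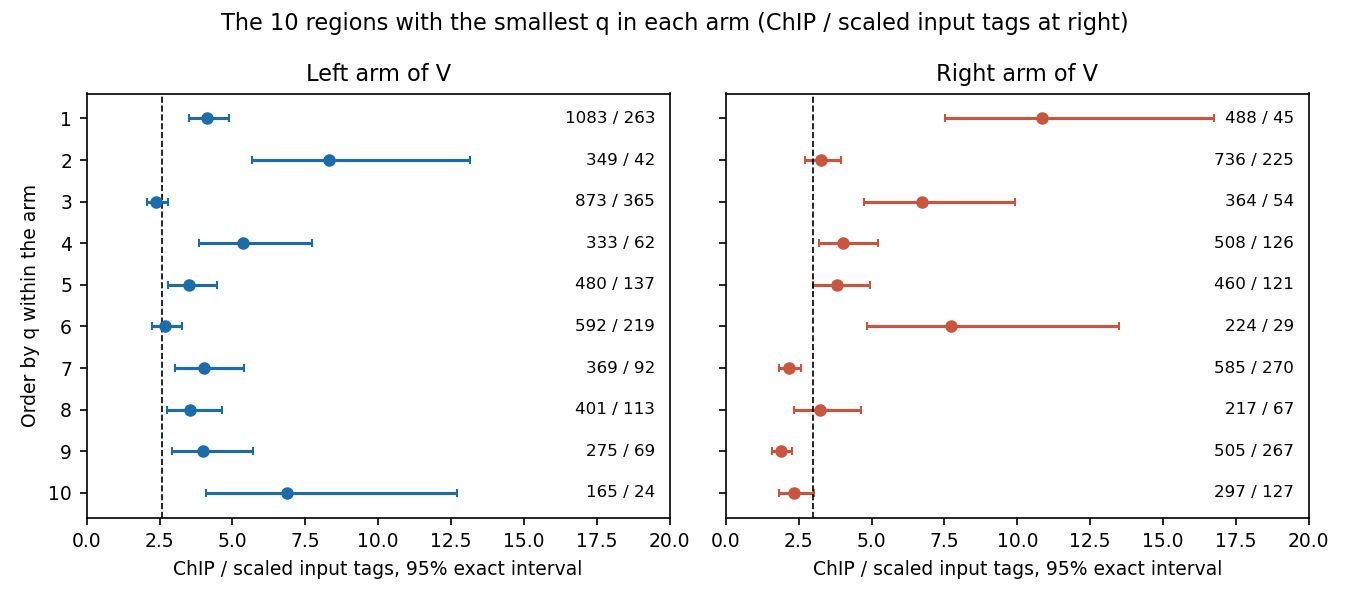
Ratio of ChIP to scaled input tags for the 10 regions with the smallest q in each arm, in order of q from top to bottom. Points give the ratio, lines its 95% exact interval, numbers the ChIP and scaled input tags, and the dashed line the median ratio of all regions of that arm (2.60 left, 3.00 right). The first region of the right arm, at 10.8, is the highest, and 3 of the last 4 on the right lie under the dashed line.

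Long stretches without a region were a larger part of the arms than of the centre. Stretches of at least 100 kb took up 18.6% of the right arm's span in 4 pieces and 9.33% of the left arm's in 3, against 5.31% of the centre's in 5. A single stretch of 297 kb made up 5.05% of the left arm's span. By number the left arm was near the centre, at 0.509 and 0.469 per Mb, against 0.925 on the right. The longest of the centre was 138 kb. On the other 5 chromosomes such stretches made up 5.08% of the span, with 6.90% on chromosome IV and a longest stretch of 312 kb on chromosome II. Outside the stretches of at least 100 kb the arms had 57.8 regions per Mb on the left and 57.9 on the right, against 70.4 in the centre. Leaving out span chosen for being empty raises each rate, and most so on the right, so the near equality is no separate result. The typical distance was less unlike: the median stretch between neighbours was 9.56 kb on the left, 8.97 kb on the right and 7.36 kb in the centre.

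The longest stretch of the whole list ran for 336 kb in the right arm, from 17380130 to 17715728. The region before it, at 17379926 to 17380129, had 34 ChIP tags over 5 scaled input tags, and the one after it, at 17715729 to 17715840, had 24 over 8. The next on the right ran for 197 kb from 16967056 to 17163932, followed by 149 kb from 19190396 to 19339552, 122 kb from 18201518 to 18323389 and 91.7 kb from 19801247 to 19892956. The 2 longest are separated by 216 kb that held 10 regions. From 17715729 to 18201517, between the 336 kb and the 122 kb stretch, lay 26 regions, among them the strong pair in the window from 17900001.

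In the left arm the longest stretch was 297 kb, from 2290587 to 2588037, which ranks 3 in the list by length. It was followed by 144 kb from 4195260 to 4339635, 108 kb from 1949372 to 2057298, 95.2 kb from 3884244 to 3979451 and 93.8 kb from 810836 to 904623. The 297 kb stretch adjoins the densest of the 4 pieces into which the stretches of at least 100 kb divide the arm. Between it and the 108 kb stretch, 233 kb from 2057299 to 2290586 held 21 regions, or 90.0 per Mb. This piece starts and ends at a region and was picked as the densest, which raises its rate, so the rate is no separate result. Of the 21 regions, 7 had a q under 1e-10, against 17.8% in the whole arm, a difference that was not tested.

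At the ends of the 7 arm stretches of at least 100 kb lay 14 regions. Under 250 bp wide were 4 of 6 on the left and 6 of 8 on the right, while 31.7% of all left arm regions and 49.5% of all right arm regions were. These numbers are too small to give a difference, and the stretch ends were looked at after values were seen. A q under 1e-10 was found at 2 of the 14, close to the 15.0% of all arm regions. Both are on the left: the region at 2057299, and that at 4194777 to 4195259 with 147 ChIP tags over 39 (ratio 3.77). The 8 on the right had medians of 31 ChIP and 9 scaled input tags. Whether reads could be placed within the stretches cannot be read from the list, and their cause was not tested.

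**Figure D4:**
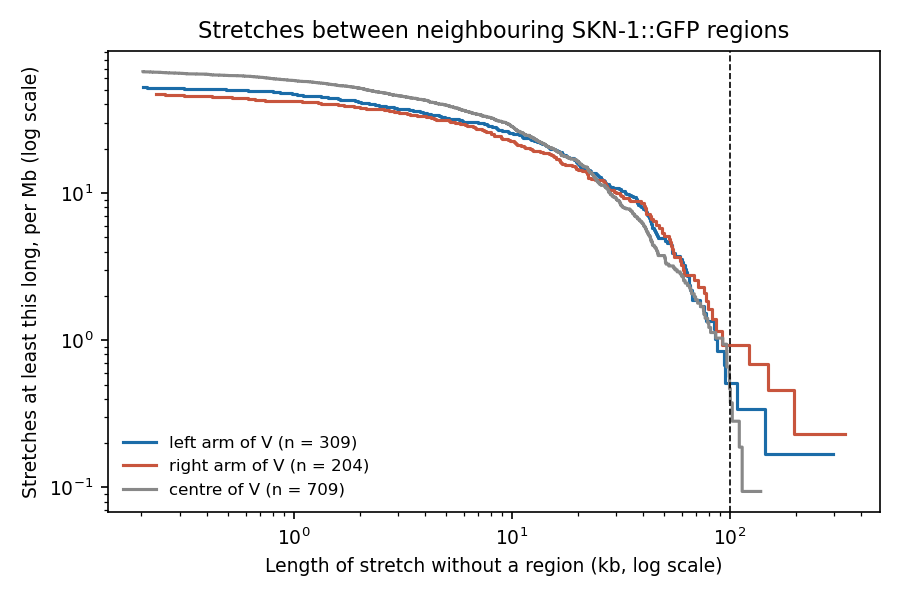
Number of stretches between neighbouring regions that are at least as long as the length on the x axis, per Mb of span, for the left arm, right arm and centre, both axes on log scales. The dashed line marks 100 kb. The curve of the centre lies above both arms at short lengths and ends at 138 kb, while the left arm reaches 297 kb and the right arm 336 kb.

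Close spacing in the arms differed from that in the centre by less than counting error. A neighbour, counted where midpoints were at most 2 kb apart, was found for 28.2% of left arm regions (23.2 to 33.5), 28.9% of right arm regions (22.8 to 35.7) and 29.6% of those in the centre (26.2 to 33.1). On the other chromosomes the share was 36.9%. Lone regions, with no other midpoint within 20 kb, were 10.8% on the right, 8.09% on the left, 6.34% in the centre and 4.36% on the other chromosomes. In runs, each region starts under 2 kb after the end of the last. Of these, 9 of 243 on the left, 6 of 165 on the right and 31 of 549 in the centre had 3 or more members, single regions being counted as runs of 1. The longest on the left was 5 regions from 1149770 to 1156289, with 743 ChIP tags over 289 scaled input tags in all. The longest on the right was 5 regions from 20408944 to 20415620, with 836 tags over 457. The list's first region of V, at 8000 to 9303, had 369 tags over 153 and a ratio of 2.41.

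The arm boundaries do not pass through a group of regions. The last region of the left arm, at 5850561 to 5850953, had a ratio of 1.70, and the first of the centre, at 5917685 to 5918054, one of 2.14. On the other side the last region of the centre, at 16537830 to 16538408, had a ratio of 2.28, and the first of the right arm, at 16591903 to 16592612, one of 2.50.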

How the data were processed

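Per the file headers, the list is on WormBase WS180 and names PeakSeq as caller. The authors' deposited q values, a form of adjusted p-value, are the only measurement; no source used here gives the aligner, the settings, library totals or how replicates were combined. In Python 3.11.15 (NumPy 2.4.6, SciPy 1.17.1, pandas 2.3.3, matplotlib 3.10.9), every q was written as p × N / (rank + 1). N came out as 14281, and each p as the lower tail of a binomial with probability 0.5 for 1 pair of whole numbers at 7710 regions, all 1223 of V among them (largest difference in ln p 3.41e-13, tolerance 1e-09). The larger number was read as ChIP and the smaller as scaled input tags, from knowledge of PeakSeq's test. On V 98.8% of the scaled inputs between 2 and 400 are rounded-up multiples of 1.58 (values that take in 63.2% of whole numbers), taken as the input scaling; dividing by it gave input tags before scaling. These steps were tested on simulated data. Input per kb uses width plus 200 bp. Rate and ratio intervals are exact (Poisson or Clopper-Pearson) and cover counting error only. Arm limits, named regions and tests were chosen with earlier results of these data known. Named were, per arm, the 10 smallest q and the 5 highest ratios with at least 20 input tags. Also named were the 5 longest stretches and the 3 densest 100 kb windows. Ends of stretches, the split of each arm at its midpoint, regions at a scaled input of 1, runs and edge regions were added after values were seen. Alternatives were other rankings, widths, boundaries, merging, lengths and distances.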

Additional observations from a re-analysis of the deposited data

How the results depend on the processing

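No paired analysis was possible because the list pools the libraries, and for that reason no replicate could be left out. Of 36 alternatives, 13 stayed within the interval of the reported value, 23 moved and none reversed. Only the rates against the centre could have reversed. Stretch counts have no interval to stay within, and another length or distance shifts a count or share by definition. The tally is therefore no measure of robustness. The labels apply to each value alone and not to the order of the arms. With at least 20 input tags the arms changed order in median ratio. The right arm then had 2.19 (1.98 to 2.40) and the left 2.24 (2.14 to 2.41), with overlapping intervals. For both arms, the rates against the centre stayed within their intervals except that the right arm fell to 0.552 in the best-ranked 1928 regions (35 regions against 156); the left arm there stood at 0.892 (0.670 to 1.18), which reaches 1. Stretches of at least 50 kb numbered 29 on the left, 40 in the centre and 22 on the right, those of 200 kb 1, 0 and 1, and in the best-ranked 3857 regions those of 100 kb 14, 23 and 13, as a shorter list leaves longer stretches. In the order left, centre, right, the median ratio was 4.24, 3.80 and 4.88 without input scaling and 2.24, 2.04 and 2.19 with at least 20 input tags, and 2.47 in the centre for the best-ranked 3857. Shares with a neighbour within 1 kb were 8.41%, 9.15% and 8.33%, and within 5 kb 58.3%, 61.0% and 54.4%. Within V, the ratios of the right arm rest on the fewest input tags, since 49.5% of its listed regions had under 10.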
